A study of Mus musculus with 16 samples.

Results

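The 10 core clock genes described here were Arntl, Clock, Npas2, Per1, Per2, Per3, Cry1, Nr1d1, Dbp and Ciart, picked by gene name from the 33730 genes of a mouse liver count table. The study measured RNA in livers of C57BL/6 mice with and without Nrf2, a transcription factor that CDDO-Me, a synthetic triterpenoid, activates. There were 16 RNA-seq libraries in 4 groups of 4, and the design text gives 4 animals a group. The groups were KO CDDO-Me (Nrf2-/- mice given CDDO-Me), KO untreated (Nrf2-/- mice with no injection), WT CDDO-Me (wild-type mice given CDDO-Me) and WT DMSO (wild-type mice given the solvent). CDDO-Me was injected into the abdomen at 3 mg/kg in DMSO, and DMSO alone at 1 μL/g. The treatment protocol puts the injections 24 h and 1 h before partial hepatectomy, whereas the design text puts the removal of the liver 24 h after treatment. All libraries are labelled day 0 of the operation, and none carries an hour of the day. KO untreated mice received no solvent, so drug and solvent cannot be told apart in KO CDDO-Me against KO untreated livers. Likewise genotype and solvent cannot be told apart in KO untreated against WT DMSO livers. Age, sex and the deleted piece of the Nrf2 gene were not stated.

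As background, the clock of liver cells is a feedback loop of transcription. The proteins of Arntl and Clock pair up and switch on genes that carry E-boxes, among them the Per and Cry genes, whose proteins then block that pair. Nr1d1 in turn represses Arntl through ROR elements. In mouse liver the RNAs of Arntl and Npas2 are known to peak at a time of day when those of Dbp and Nr1d1 are low, so the balance between them differs between mice sampled at different hours.

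The letters of these control elements can be read in the promoters of the genes themselves. RefSeq promoter windows (GRCm38.p6, 250 bases before to 50 after a transcript start) were present for 9 of the 10 genes, with 13 windows in all. The 4 motifs named next were searched on both strands, and no match overlapped another: the E-box CACGTG, the E-prime-box CACGTT, the D-box TTANGTAA and the ROR element core TAGGTNA. They occurred in 7.15%, 4.68%, 2.32% and 8.29% of all 32851 mouse windows. The windows of Dbp, Clock and Npas2, and the other window of Per1, held no match in these letters. The 6 windows shown here were picked for their matches, which are in capitals, with positions counted from the transcript start as 1:
Arntl: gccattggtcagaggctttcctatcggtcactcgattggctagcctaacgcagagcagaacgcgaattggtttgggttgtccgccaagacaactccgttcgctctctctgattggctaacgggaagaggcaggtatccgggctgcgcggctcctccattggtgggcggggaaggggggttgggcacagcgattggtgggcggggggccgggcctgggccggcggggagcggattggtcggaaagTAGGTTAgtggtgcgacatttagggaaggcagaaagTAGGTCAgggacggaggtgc
Per1: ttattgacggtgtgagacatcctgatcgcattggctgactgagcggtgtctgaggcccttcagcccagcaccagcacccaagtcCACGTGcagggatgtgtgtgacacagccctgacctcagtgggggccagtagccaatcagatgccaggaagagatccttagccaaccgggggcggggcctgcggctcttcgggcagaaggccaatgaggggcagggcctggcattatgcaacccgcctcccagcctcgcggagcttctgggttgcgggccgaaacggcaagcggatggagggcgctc
Per3: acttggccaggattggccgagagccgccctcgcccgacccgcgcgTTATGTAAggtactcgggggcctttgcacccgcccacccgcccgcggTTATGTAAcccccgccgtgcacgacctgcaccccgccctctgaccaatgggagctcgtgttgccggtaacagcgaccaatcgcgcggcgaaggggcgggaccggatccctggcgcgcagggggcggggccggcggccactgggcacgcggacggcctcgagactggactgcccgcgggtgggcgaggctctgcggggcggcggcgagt
Cry1: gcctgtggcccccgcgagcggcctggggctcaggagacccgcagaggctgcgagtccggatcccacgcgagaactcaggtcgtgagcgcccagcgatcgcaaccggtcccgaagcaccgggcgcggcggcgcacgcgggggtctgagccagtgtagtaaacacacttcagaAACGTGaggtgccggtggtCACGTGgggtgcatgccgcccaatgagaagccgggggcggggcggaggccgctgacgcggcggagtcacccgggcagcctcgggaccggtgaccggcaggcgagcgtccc
Nr1d1: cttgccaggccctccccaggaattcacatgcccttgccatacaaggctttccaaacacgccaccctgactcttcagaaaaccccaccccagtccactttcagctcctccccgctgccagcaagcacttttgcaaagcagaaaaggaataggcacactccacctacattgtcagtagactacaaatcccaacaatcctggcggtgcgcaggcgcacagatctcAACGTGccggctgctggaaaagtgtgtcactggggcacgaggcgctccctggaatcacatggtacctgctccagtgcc
Ciart: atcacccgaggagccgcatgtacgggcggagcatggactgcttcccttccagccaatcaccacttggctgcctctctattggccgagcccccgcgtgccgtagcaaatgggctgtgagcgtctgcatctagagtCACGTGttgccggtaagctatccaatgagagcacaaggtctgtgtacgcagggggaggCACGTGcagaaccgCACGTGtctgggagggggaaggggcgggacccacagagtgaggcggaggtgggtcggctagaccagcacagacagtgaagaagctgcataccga
The Arntl window (chr7:113207261-113207560, plus strand) held ROR element cores at positions -6 and 31. The Per1 window (chr11:69098699-69098998, plus strand) held an E-box at -166. The Per3 window (chr4:151044616-151044915, minus strand) held D-boxes, the motif that the Dbp protein binds, at -205 and -158. The Cry1 window (chr10:85185005-85185304, minus strand) held an E-box at -60 and an E-prime-box, read on the other strand, at -79. The Nr1d1 window (chr11:98775328-98775627, minus strand) held an E-prime-box on the other strand at -28, and the Ciart window (chr3:95882179-95882478, minus strand) held E-boxes at -116, -58 and -44. Matches describe these letters only and were not tested for binding.

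The libraries differed in ways that the groups do not set. Total counts ran between 12002317 and 99284626, the highest in WT CDDO-Me 1. Counts in genes annotated as sense-intronic or TEC (loci awaiting experimental evidence) made up 0.673% to 0.967% in KO untreated 1 and 2 and WT DMSO 1 and 2, and 0.186% to 0.407% in the other 12 libraries. Counts in ribosomal RNA genes made up 0.173% to 0.634% in WT CDDO-Me 2 to 4 and WT DMSO 1 to 3, and 0.00108% to 0.0368% in the other 10, which include every KO library. WT DMSO 4 and WT CDDO-Me 1 are the only WT libraries with the low share, and fits without this pair are given below. In the submitters' sample numbers this pair comes after all other libraries, and the libraries with the high share come before all KO libraries. What that order stands for is not stated. Counts in mitochondrial genes made up 14.7% in WT CDDO-Me 4 and 7.15% to 10.02% in WT DMSO 1 to 3, and 2.57% to 4.09% in the other 12. WT DMSO 4 stood apart in the neutrophil markers S100a8 and S100a9, at 9.14 and 18.9 CPM, against at most 2.36 and 4.89 CPM in any other library. It stood apart in other genes too. The cholangiocyte marker Epcam and Nampt had 5.19 and 142 CPM in it, against at most 1.42 and 71.0 CPM elsewhere. The endothelial marker Kdr, Cyp7a1 and G6pc had 23.9, 5.74 and 68.3 CPM in it, against at least 60.3, 49.7 and 254 CPM elsewhere. Not every marker of these cell types stood apart. The 5 hepatocyte markers (Alb, Apoa1, Ttr, Apob and Cps1) summed to 50596 CPM or more in every library. Nfe2l2, the gene of Nrf2, had 15.7 to 21.0 CPM in KO CDDO-Me livers and 19.9 to 51.7 CPM in KO untreated livers. It had 36.6 to 45.5 CPM in WT CDDO-Me livers and 42.8 to 74.9 CPM in WT DMSO livers. KO untreated 1 lay within the WT range, and since the deleted piece is not stated, reads outside it check nothing. Nqo1, a known target of Nrf2, had at most 1.98 CPM in KO libraries and at least 3.21 CPM in WT libraries. CPM are counts scaled to a common library total with TMM factors.

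Per length of transcript, Nr1d1 stood highest of the 10 genes, with a mean of 14.7 ± 7.82 FPKM (SD over 16 libraries). Below it, the mean levels were 7.23 FPKM for Per1, 7.002 for Clock, 3.83 for Dbp, 3.33 for Cry1 and 3.31 for Arntl. Per2 had 3.00 FPKM, Per3 1.83, Ciart 1.25 and Npas2 0.645. Each neighbouring pair in this order was closer together than the larger SD of the pair, so no neighbours were separated beyond their spread.

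**Figure D1:**
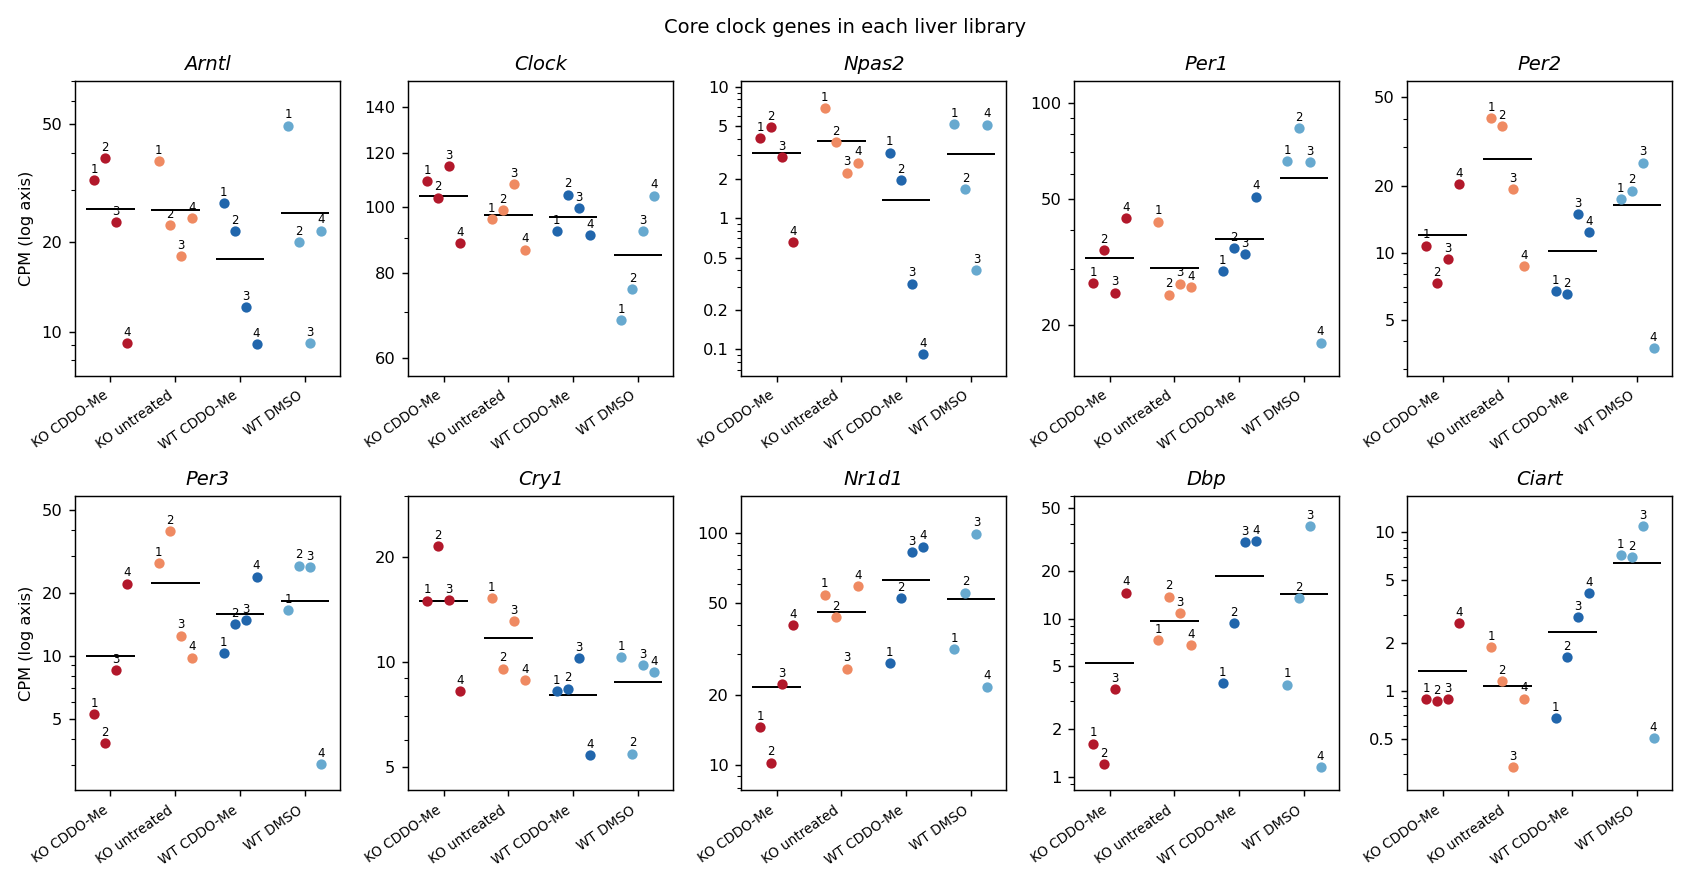
Level of the 10 clock genes in each library, in CPM on a log axis, with KO CDDO-Me, KO untreated, WT CDDO-Me and WT DMSO running left to right. Points carry the library number and bars are group means: KO CDDO-Me 4, WT CDDO-Me 3 and 4 and WT DMSO 3 combine low Arntl and Npas2 with high Dbp.

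No clock gene differed between groups by the test used for the whole table, the quasi-likelihood test of edgeR, adjusted by Benjamini-Hochberg over 16206 genes at a threshold of 0.05. All 10 genes were tested, and in no comparison did the libraries of one group lie wholly above or below those of the other. In whole liver, fewer cells of a type and less RNA per cell cannot be told apart.
In KO CDDO-Me against KO untreated livers, 0 of 10 clock genes were called, where 0.130% of all genes were. At an unadjusted p under 0.05 there were 2 (Per2 and Nr1d1, both lower), beside 15.8% of all genes. None of the 10 had groups that did not overlap, beside 10.5% of all genes.
In KO CDDO-Me against WT CDDO-Me livers, 0 of 10 were called by edgeR, where 3.30% of all genes were. At an unadjusted p under 0.05 there were 2 (Cry1 higher and Nr1d1 lower), beside 17.1% of all genes, and 19.1% of all genes had groups that did not overlap.
In KO untreated against WT DMSO livers, 0 of 10 were called by edgeR, where 1.38% of all genes were. At an unadjusted p under 0.05 there were 2 (Per1 and Ciart, both lower), beside 14.1% of all genes, and 5.91% of all genes had groups that did not overlap.
In WT CDDO-Me against WT DMSO livers, 0 of 10 were called by edgeR and 0 at an unadjusted p under 0.05, where 0.728% and 15.3% of all genes were. Groups that did not overlap were found in 7.20% of all genes.
In the interaction of genotype and drug, 0 of 10 were called by edgeR and 0 at an unadjusted p under 0.05, where 0.130% and 8.53% of all genes were. The drug difference in WT minus that in KO livers lay between -1.84 for Ciart and 1.33 for Nr1d1 on the log2 scale. Its KO part holds solvent and injection as well as drug, since KO untreated mice received neither. These cannot be told apart in the interaction. DESeq2 called Cry1 and Nr1d1 in KO CDDO-Me against WT CDDO-Me livers and Ciart in KO untreated against WT DMSO livers, and limma voom called none of the 10 in any of the 5 tests.

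The fold changes of the clock genes were mixed in sign, and their median size was above that of all genes. Their median absolute log2 fold change was 0.34 in KO CDDO-Me against KO untreated livers, beside 0.29 over all genes tested. It was 0.70 in KO CDDO-Me against WT CDDO-Me livers, beside 0.26, and 0.36 in KO untreated against WT DMSO livers, beside 0.23. In WT CDDO-Me against WT DMSO livers it was 0.44, beside 0.29. The median signed log2 fold changes were -0.14, -0.04, 0.11 and -0.36 in the same order. The 95% intervals of 44 of the 50 values held 0. Most of the clock genes also spread more within groups than most genes did, as given below. The part of that spread in the size of these fold changes was not tested.

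**Figure D2:**
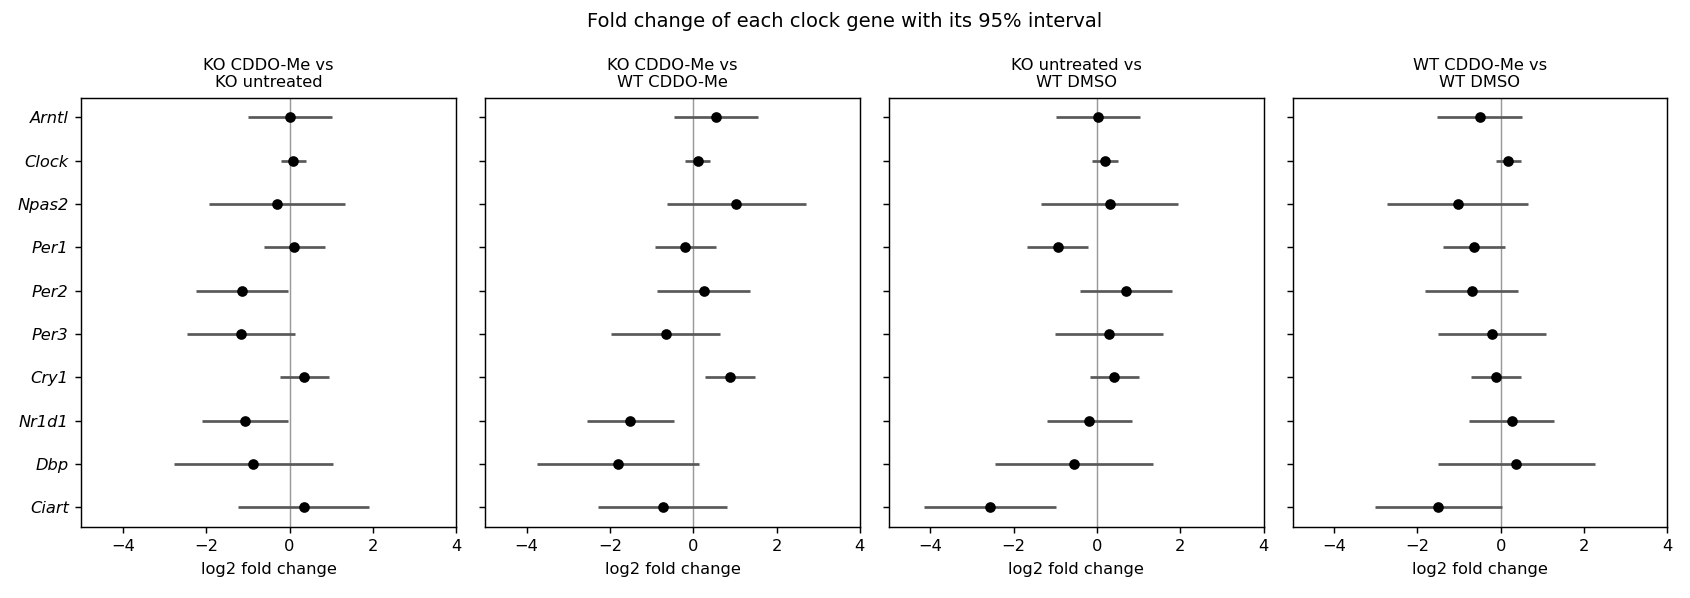
Log2 fold change of each clock gene (points) with its 95% interval from edgeR (lines) in the 4 comparisons, the first-named group over the second. Intervals are narrow for Clock and wide for Dbp, Npas2 and Ciart, and 6 of the 40 do not reach 0, none of them called after adjustment over all genes.

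The activators came apart: Arntl and Npas2 varied widely between livers of 1 group, and Clock hardly did. Arntl (ENSMUSG00000055116, chr7:113207465-113314126, plus strand) encodes BMAL1, the partner of CLOCK. Arntl had 32.5, 38.5, 23.5 and 9.15 CPM in KO CDDO-Me libraries 1 to 4, and 37.7, 22.8, 18.0 and 24.2 CPM in KO untreated libraries 1 to 4. It had 27.2, 21.8, 12.1 and 9.09 CPM in WT CDDO-Me libraries 1 to 4, and 49.5, 20.0, 9.17 and 21.9 CPM in WT DMSO libraries 1 to 4. The lowest were KO CDDO-Me 4, WT CDDO-Me 4 and WT DMSO 3, in 3 different groups, and the highest was WT DMSO 1. The groups overlapped throughout. The log2 fold change was 0.01 ± 0.48 (SE) in KO CDDO-Me against KO untreated livers and 0.55 ± 0.48 in KO CDDO-Me against WT CDDO-Me livers. It was 0.03 ± 0.48 in KO untreated against WT DMSO livers and -0.50 ± 0.48 in WT CDDO-Me against WT DMSO livers, with edgeR adjusted p between 0.592 and 0.993. An antisense gene, Gm45355, overlaps it but held 1 read in all.

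Npas2 (ENSMUSG00000026077, chr1:39193731-39363236, plus strand), whose protein can stand in for CLOCK as the partner of BMAL1, moved with Arntl on a far lower level. Npas2 had 4.09, 4.93, 2.93 and 0.653 CPM in KO CDDO-Me libraries 1 to 4, and 6.86, 3.76, 2.22 and 2.64 CPM in KO untreated libraries 1 to 4. It had 3.15, 1.93, 0.316 and 0.0918 CPM in WT CDDO-Me libraries 1 to 4, and 5.18, 1.67, 0.401 and 5.14 CPM in WT DMSO libraries 1 to 4. WT CDDO-Me 4, WT CDDO-Me 3 and WT DMSO 3 were lowest, with 1, 4 and 6 reads, and KO untreated 1 was highest. The groups overlapped in each comparison, and the widest log2 fold changes were 1.04 ± 0.79 in KO CDDO-Me against WT CDDO-Me livers and -1.03 ± 0.80 in WT CDDO-Me against WT DMSO livers (edgeR adjusted p = 0.568 and 0.513). A processed pseudogene on the same strand, Gm3617, overlaps Npas2 and held 38 reads against its 1217.

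Clock (ENSMUSG00000029238, chr5:76209868-76304792, minus strand), which encodes the other member of the activating pair, was the steadiest of the 10. Clock had 109, 103, 115 and 88.3 CPM in KO CDDO-Me libraries 1 to 4, and 95.7, 98.8, 108 and 86.4 CPM in KO untreated libraries 1 to 4. It had 91.9, 104, 99.4 and 90.9 CPM in WT CDDO-Me libraries 1 to 4, and 68.1, 75.6, 92.1 and 104 CPM in WT DMSO libraries 1 to 4. Its highest library, KO CDDO-Me 3, stood 1.68-fold above its lowest, WT DMSO 1. The 4 log2 fold changes lay between 0.09 in KO CDDO-Me against KO untreated livers and 0.20 in KO untreated against WT DMSO livers. Their 95% intervals ran no lower than -0.21 and no higher than 0.50. WT DMSO 1 and 2, which were also rich in intronic reads, were its lowest libraries. The other intron-rich pair, KO untreated 1 and 2, had 95.7 and 98.8 CPM. The part of these reads in the level of Clock was not tested.

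Of the repressors, Per1 had its highest levels in 3 of the 4 WT DMSO livers. Per1 (ENSMUSG00000020893, chr11:69095217-69109960, plus strand) encodes a period protein, which blocks the activators and whose gene also answers to glucocorticoids. Per1 had 27.1, 34.6, 25.3 and 43.5 CPM in KO CDDO-Me libraries 1 to 4, and 42.4, 25.0, 27.0 and 26.3 CPM in KO untreated libraries 1 to 4. It had 29.6, 35.1, 33.5 and 50.9 CPM in WT CDDO-Me libraries 1 to 4, and 65.6, 83.6, 65.4 and 17.6 CPM in WT DMSO libraries 1 to 4. WT DMSO 1 to 3 stood above the other 13 libraries, and WT DMSO 4 below all of them. KO untreated against WT DMSO livers gave a log2 fold change of -0.94 ± 0.35 (0.520-fold, 95% interval -1.68 to -0.21, edgeR adjusted p = 0.204). Without WT DMSO 4 it was -1.24 ± 0.23 and was called (edgeR adjusted p = 0.0148). The value was -0.64 ± 0.35 in WT CDDO-Me against WT DMSO livers (adjusted p = 0.373 by edgeR), and in both KO CDDO-Me comparisons it lay between -0.19 and 0.11. WT DMSO 1 to 3 were also the WT DMSO libraries with the high share of ribosomal RNA gene counts, whereas WT DMSO 4 and the 4 KO untreated libraries had the low share. With 1 WT DMSO library in the low set, the group difference and this split cannot be told apart. The mitochondrial share moved with Per1 too: WT DMSO 1 to 3 and WT CDDO-Me 4, the 4 libraries high in it, were the 4 highest for Per1. WT DMSO 4, on which the call turns, was the library high in S100a8 and S100a9 and set apart in the other genes given above. Kupffer cell markers (Clec4f, Adgre1, Cd5l and Marco) were positive in 4 of 4 and called higher in 1 (Adgre1), summing to 159 to 286 CPM in KO untreated livers and 125 to 167 CPM in WT DMSO livers. The part of these measures in Per1 was not tested.

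Per2 and Per3 varied together and were highest in KO untreated 1 and 2. Per2 (ENSMUSG00000055866, chr1:91415982-91459324, minus strand), another period gene, had 10.8, 7.32, 9.40 and 20.4 CPM in KO CDDO-Me libraries 1 to 4, and 40.3, 37.2, 19.3 and 8.69 CPM in KO untreated libraries 1 to 4. It had 6.75, 6.55, 14.9 and 12.4 CPM in WT CDDO-Me libraries 1 to 4, and 17.5, 19.0, 25.4 and 3.72 CPM in WT DMSO libraries 1 to 4. KO untreated 1 and 2 stood above the other 14 libraries and WT DMSO 4 below them all. KO CDDO-Me against KO untreated livers gave -1.14 ± 0.52 on the log2 scale (0.455-fold, edgeR adjusted p = 0.308), with overlapping groups. KO untreated 1 and 2 were also the intron-rich libraries of that group, and the part of intronic reads in these levels was not tested. In KO untreated against WT DMSO livers Per2 stood at 0.69 ± 0.52 on the log2 scale (by edgeR, adjusted p = 0.643), and -0.06 without the 4 intron-rich libraries.

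Per3 (ENSMUSG00000028957, chr4:151003652-151044665, minus strand), the third period gene, was likewise highest in an untreated KO liver. Per3 had 5.26, 3.83, 8.51 and 22.1 CPM in KO CDDO-Me libraries 1 to 4, and 27.8, 39.5, 12.5 and 9.80 CPM in KO untreated libraries 1 to 4. It had 10.3, 14.2, 14.9 and 24.0 CPM in WT CDDO-Me libraries 1 to 4, and 16.6, 27.1, 26.5 and 3.03 CPM in WT DMSO libraries 1 to 4. KO untreated 2 was highest and WT DMSO 4 lowest. Its log2 fold change was -1.17 ± 0.62 in KO CDDO-Me against KO untreated livers (edgeR adjusted p = 0.349) and -0.66 ± 0.62 in KO CDDO-Me against WT CDDO-Me livers (edgeR adjusted p = 0.669). The span of Per3 lies wholly within that of Camta1 on the same strand, which held 1826 reads against 5803 for Per3, so reads could be split between them.

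Cry1 (ENSMUSG00000020038, chr10:85131700-85185064, minus strand), a cryptochrome that works with the period proteins as a repressor, had its highest mean in KO CDDO-Me livers. Cry1 had 15.1, 21.6, 15.1 and 8.29 CPM in KO CDDO-Me libraries 1 to 4, and 15.3, 9.60, 13.2 and 8.91 CPM in KO untreated libraries 1 to 4. It had 8.27, 8.41, 10.3 and 5.42 CPM in WT CDDO-Me libraries 1 to 4, and 10.4, 5.48, 9.84 and 9.37 CPM in WT DMSO libraries 1 to 4. KO CDDO-Me 1 to 3 stood above all 4 WT CDDO-Me libraries and KO CDDO-Me 4 among them. The log2 fold change in KO CDDO-Me against WT CDDO-Me livers was 0.89 ± 0.28 (1.85-fold, 95% interval 0.29 to 1.49, edgeR adjusted p = 0.106). Without KO CDDO-Me 4 it was 1.09 ± 0.26 and was called (edgeR adjusted p = 0.0400). With only these 2 groups in the fit it was 0.89 and was also called, at an edgeR adjusted p of 0.0466. In the other 3 comparisons the log2 fold change lay between -0.11 and 0.42.

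Nr1d1, the repressor of Arntl, had its lowest mean in KO CDDO-Me livers. Nr1d1 (ENSMUSG00000020889, chr11:98767932-98775333, minus strand) encodes the nuclear receptor REV-ERB alpha. Nr1d1 had 14.6, 10.3, 22.3 and 40.1 CPM in KO CDDO-Me libraries 1 to 4, and 54.2, 43.3, 26.1 and 59.2 CPM in KO untreated libraries 1 to 4. It had 27.5, 52.4, 82.8 and 87.2 CPM in WT CDDO-Me libraries 1 to 4, and 31.7, 55.4, 99.2 and 21.8 CPM in WT DMSO libraries 1 to 4. KO CDDO-Me 1 to 3 and WT DMSO 4 had the lowest levels, and WT DMSO 3 was highest. KO CDDO-Me against WT CDDO-Me livers gave -1.51 ± 0.49 on the log2 scale (0.351-fold, 95% interval -2.55 to -0.47, edgeR adjusted p = 0.111). In KO CDDO-Me against KO untreated livers it was -1.06 ± 0.49 (0.478-fold, edgeR adjusted p = 0.306). With only KO CDDO-Me and WT CDDO-Me libraries in the fit, the KO CDDO-Me against WT CDDO-Me difference of -1.48 passed the threshold (edgeR adjusted p = 0.0440). In the WT CDDO-Me group, libraries 2 to 4 had the high share of ribosomal RNA gene counts, and library 1, the lowest for Nr1d1 in that group, had the low share of the KO libraries. With 1 WT CDDO-Me library in the low set, this split and the group difference cannot be told apart, for Nr1d1 as for Cry1. Of the 4 Kupffer cell markers, 3 were lower in KO CDDO-Me against WT CDDO-Me livers, and Marco among them was called. Adgre1 went the other way, with 33.8 to 46.9 CPM in KO CDDO-Me livers and 27.6 to 31.9 CPM in WT CDDO-Me livers. The 4 summed to 210 to 324 CPM in KO CDDO-Me livers and 302 to 423 CPM in WT CDDO-Me livers. Their part in Nr1d1 and Cry1 was not tested. Without WT DMSO 4 and WT CDDO-Me 1, Nr1d1 was -1.76 and was called (edgeR adjusted p = 0.0420). Nr1d1 and Thra overlap by 1075 bases on opposite strands, with 15155 and 4885 reads, and it is not stated whether the counting used strand.

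Dbp and Ciart both spread widely within groups. Dbp (ENSMUSG00000059824, chr7:45705088-45710203, plus strand), a transcription factor that carries the rhythm to many liver genes through D-boxes, was high where Arntl was low. Dbp had 1.62, 1.197, 3.57 and 14.6 CPM in KO CDDO-Me libraries 1 to 4, and 7.31, 13.8, 10.8 and 6.82 CPM in KO untreated libraries 1 to 4. It had 3.90, 9.38, 30.7 and 30.9 CPM in WT CDDO-Me libraries 1 to 4, and 3.82, 13.5, 38.7 and 1.15 CPM in WT DMSO libraries 1 to 4. WT CDDO-Me 3 and 4 and WT DMSO 3 stood above the rest, and KO CDDO-Me 1 and 2 and WT DMSO 4 were lowest. The highest library was 33.7-fold above the lowest, and both were WT DMSO libraries. The log2 fold change was -1.80 ± 0.92 in KO CDDO-Me against WT CDDO-Me livers (edgeR adjusted p = 0.340) and -0.87 ± 0.90 in KO CDDO-Me against KO untreated livers (edgeR adjusted p = 0.607). It was -0.56 ± 0.90 in KO untreated against WT DMSO livers, where it was 0.68 without WT DMSO 3, and 0.38 ± 0.89 in WT CDDO-Me against WT DMSO livers. Dbp overlaps 737 bases of Sphk2 on the opposite strand, which held 14172 reads against 3537, so its counts are uncertain if strand was not used.

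Ciart (ENSMUSG00000038550, chr3:95878503-95882251, minus strand), whose protein, also called CHRONO, represses the activating pair, was highest in the same WT DMSO livers as Per1. Ciart had 0.890, 0.862, 0.892 and 2.68 CPM in KO CDDO-Me libraries 1 to 4, and 1.88, 1.16, 0.330 and 0.895 CPM in KO untreated libraries 1 to 4. It had 0.676, 1.64, 2.92 and 4.13 CPM in WT CDDO-Me libraries 1 to 4, and 7.16, 6.94, 11.0 and 0.505 CPM in WT DMSO libraries 1 to 4. WT DMSO 1 to 3 stood above the other 13 libraries and WT DMSO 4 near the bottom. The log2 fold change in KO untreated against WT DMSO livers was -2.58 ± 0.75 (0.167-fold, 95% interval -4.16 to -0.99, edgeR adjusted p = 0.106), and DESeq2 gave an adjusted p of 0.0104. Without WT DMSO 4 it was -2.97 ± 0.59 and was called (edgeR adjusted p = 0.0204). For WT CDDO-Me against WT DMSO livers it was -1.51 ± 0.72 (edgeR adjusted p = 0.333). The ribosomal RNA split runs with WT DMSO 1 to 3 here as it does for Per1, and the 4 libraries high in mitochondrial counts were again the 4 highest. Kupffer cell markers, and the neutrophil markers and other genes that set WT DMSO 4 apart, stand beside Ciart as they do beside Per1, and their part was not tested. Ciart counts ran between 7 and 164 reads a library, and an antisense gene, C920021L13Rik, overlaps it in full with 176 reads against 790.

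Most clock genes differed more between livers of 1 group than most genes did. The SD of log2 CPM within groups had a median of 0.86 over the 10 genes, against 0.38 over all genes tested and 0.43 over the 20 other clock genes tested. Dbp, at 1.54, had a larger SD than 99.7% of genes, Npas2, at 1.47, than 99.6%, and Ciart, at 1.26, than 99.1%. Per3 stood at 1.06, Per2 at 0.91, Arntl at 0.80, Nr1d1 at 0.79, Per1 at 0.59 and Cry1 at 0.44. Clock, at 0.18, had a larger SD than 9.73% of genes. The group means held between 10.4% (Arntl) and 43.6% (Cry1) of each gene's variance, with a median of 26.9%, against 31.5% over all genes.

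**Figure D3:**
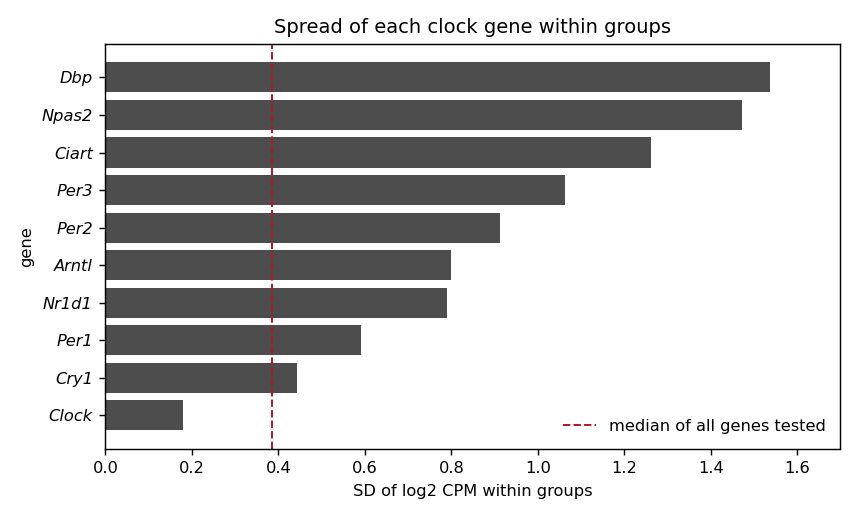
SD of log2 CPM between libraries of the same group for each clock gene (bars), with the median of all 16206 genes tested (dashed line). Of the 10 genes, 9 lie above the median of 0.38 and Clock, at 0.18, lies below it.

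The balance between the arms of the clock was read per library as the log2 ratio of Dbp to Arntl in CPM, given as a description without a test. It was -4.26, -4.92, -2.69 and 0.67 in KO CDDO-Me libraries 1 to 4, and -2.35, -0.72, -0.73 and -1.81 in KO untreated libraries 1 to 4. It was -2.78, -1.21, 1.34 and 1.76 in WT CDDO-Me libraries 1 to 4, and -3.67, -0.56, 2.07 and -4.16 in WT DMSO libraries 1 to 4. In CPM, positive ratios were found in 4 libraries from 3 groups, KO CDDO-Me 4, WT CDDO-Me 3 and 4 and WT DMSO 3. CPM are not scaled by length (2.99 kb for Dbp and 7.52 kb for Arntl), so equal CPM is not an equal level per length. From FPKM the ratio was also positive in KO untreated 2 (0.60) and 3 (0.59), WT CDDO-Me 2 (0.11) and WT DMSO 2 (0.77). The group means of the CPM ratio were -2.80 ± 2.50 in KO CDDO-Me, -1.41 ± 0.81 in KO untreated, -0.22 ± 2.15 in WT CDDO-Me and -1.58 ± 2.91 in WT DMSO livers (SD, n = 4 each). Between the highest and the lowest liver of a group the ratio differed by 5.59 in KO CDDO-Me, 1.63 in KO untreated, 4.53 in WT CDDO-Me and 6.23 in WT DMSO livers. KO untreated livers were the most alike in this ratio. In each WT group the lowest ratio was in its 1 library with the low ribosomal RNA share, WT CDDO-Me 1 and WT DMSO 4. WT CDDO-Me 3 and 4 and WT DMSO 3 had the high share, as did WT DMSO 1 at -3.67. KO CDDO-Me 4 had the low share. With group means removed, Pearson r of Dbp was 0.48 with the log2 of this share and 0.52 with the mitochondrial share. For Arntl r was -0.14 and -0.46. The part of these measures in the ratio and in Dbp was not tested. Since no hour of sampling is given, whether these livers were taken at different times of day was not tested.

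**Figure D4:**
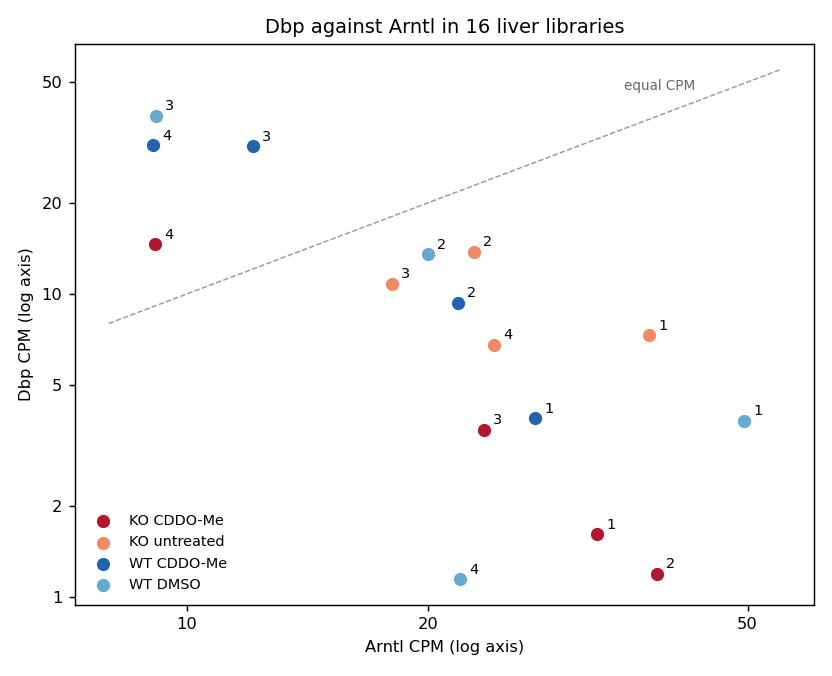
Dbp against Arntl in CPM, both on log axes, 1 point per library with its number, and a dashed line of equal CPM. Libraries with high Arntl have low Dbp, 4 libraries from 3 groups lie above the line, and WT DMSO 4 sits low on Dbp at a middling Arntl. CPM are not scaled by length, so the line is not one of equal level per length.

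Within groups, Arntl and Npas2 moved together and opposite to Dbp and Nr1d1. Correlations were taken over 16 libraries on log2 CPM with group means removed, for all 45 pairs of the 10 genes, and p-values from 100000 permutations within groups were adjusted over the 45 pairs. Of them, 17 were called, 13 positive and 4 negative. Arntl and Npas2 moved together, with Pearson r = 0.91 (adjusted p = 0.000900) and Spearman rho = 0.91 (adjusted p = 0.00135), permutation tests. Arntl and Dbp moved oppositely, with Pearson r = -0.81 (adjusted p = 0.0158) and Spearman rho = -0.87 (adjusted p = 0.00682), permutation tests. For Npas2 and Dbp the values were Pearson r = -0.89 (adjusted p = 0.00375) and Spearman rho = -0.86 (adjusted p = 0.00682), permutation tests. Arntl with Nr1d1 and Npas2 with Nr1d1 were the other negative pairs called, at Pearson r of -0.71 and -0.80.
The positive pairs joined Dbp, Nr1d1, Ciart and the period genes. Dbp and Nr1d1 gave Pearson r = 0.88 (adjusted p = 0.00375) and Spearman rho = 0.88 (adjusted p = 0.00682), permutation tests. Per2 and Per3 gave Pearson r = 0.90 (adjusted p = 0.00375) and Spearman rho = 0.86 (adjusted p = 0.00709), permutation tests. Per1 and Ciart gave Pearson r = 0.87 (adjusted p = 0.0100) and Spearman rho = 0.76 (adjusted p = 0.0187), permutation tests. Cry1 and Clock entered no called pair, the strongest of theirs being Clock with Per1 at Pearson r = -0.67 (permutation test, adjusted p = 0.0741).
Some of these rested on few libraries. Without the 2 libraries farthest from the median of the gene on the x axis, 9 pairs were called, and without WT DMSO 4 and WT CDDO-Me 1 there were 8. Of the 4 negative pairs, Npas2 with Dbp was the 1 still called without the 2 farthest. Without the 4 intron-rich libraries 21 pairs were called, 10 positive and 11 negative. Without those 2 farthest libraries, Pearson r was 0.94 for Arntl and Npas2 and -0.79 for Arntl and Dbp, where the adjusted p was 0.0519 by permutation. It was 0.82 for Dbp and Nr1d1, 0.81 for Per2 and Per3 and 0.72 for Per1 and Ciart, which was no longer called. Within the 6 libraries high in ribosomal RNA gene counts, Pearson r was 0.95 for Arntl and Npas2 and -0.99 for Arntl and Dbp. Within the 8 KO libraries, all low in them, it was 0.98 and -0.93. For Per1 and Ciart, r was 0.39 in the high set and 0.70 in the low set.

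**Figure D5:**
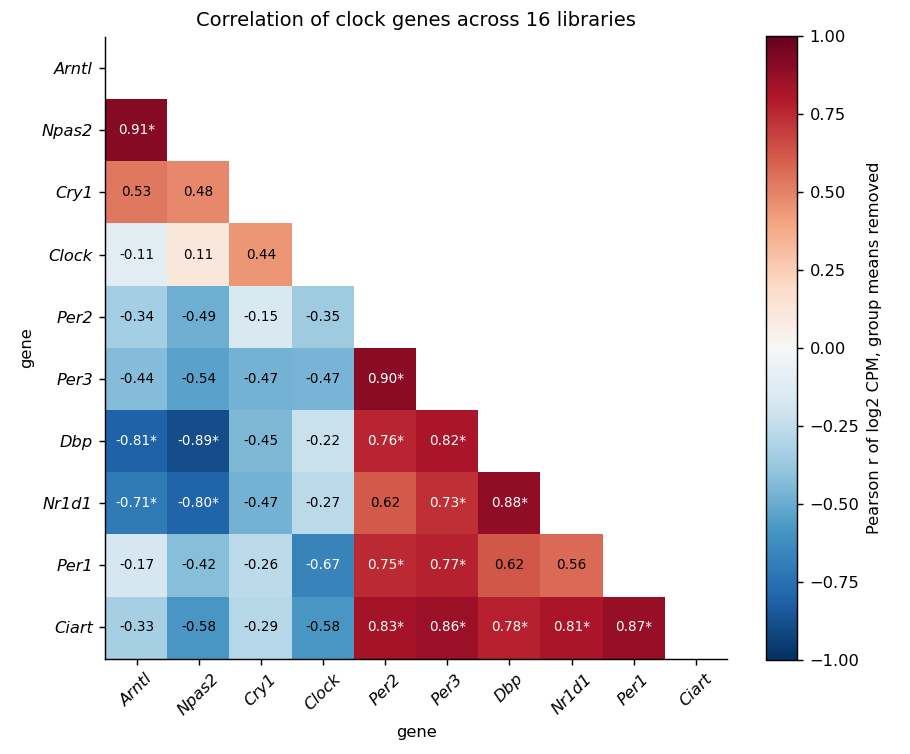
Pearson r between clock genes over 16 libraries, on log2 CPM with group means removed; asterisks mark the 17 pairs with an adjusted permutation p under 0.05. Arntl and Npas2 correlate positively with each other (0.91) and negatively with Dbp and Nr1d1, while Dbp, Nr1d1, Ciart and the period genes correlate positively.

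Outside the 10 genes, those most like Arntl and Dbp were sought by the same Pearson r among 13630 genes with a mean of at least 1 CPM. Among the 5 closest to Arntl, outside the lists used here, were Syne1 (r = 0.89), Nxn (0.88), Chka (0.87) and Tmem150a (0.87). Also outside those lists, the 5 closest to Dbp were Ppp2r5e (r = 0.93), Syde2 (0.86), Narf (0.86), Slc35g1 (0.86) and E130308A19Rik (0.84). These are the highest of many values over the same 16 libraries and are given as a description. Counted with the clock genes included, genes with r above 0.8 numbered 23 for Arntl and 28 for Dbp. Among known clock genes, Tef, a relative of Dbp that binds the same D-boxes, followed Dbp at r = 0.95, and Usp2, a deubiquitinase with a strong liver rhythm, at 0.91. Hlf, the remaining relative of Dbp, followed it at 0.77, while Nfil3, a repressor at D-boxes, ran opposite at -0.66. Nr1d2, which encodes REV-ERB beta, ran opposite to Arntl at -0.86.

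The rest of the loop was read from 21 further clock genes (receptors, D-box factors, kinases and F-box proteins), of which 20 were tested and Rorb was too low. None was called by edgeR in any of the 5 tests, beside the shares of all genes given above. At an unadjusted p under 0.05 there were 1 in KO CDDO-Me against KO untreated, 5 in KO CDDO-Me against WT CDDO-Me, 4 in KO untreated against WT DMSO and 3 in WT CDDO-Me against WT DMSO livers, and 0 in the interaction. The largest log2 fold change in KO CDDO-Me against KO untreated livers was in Nfil3, with 64.1, 95.02, 44.0 and 58.1 CPM in KO CDDO-Me libraries 1 to 4, against 30.8, 15.8, 24.4 and 38.0 CPM in KO untreated libraries 1 to 4. The groups did not overlap, and Nfil3 stood at 1.26 ± 0.29 on the log2 scale (by edgeR, adjusted p = 0.102, 0.0473 without WT DMSO 4, and DESeq2 adjusted p = 0.00442). For KO untreated against WT DMSO livers it was in Bhlhe41, the gene of the repressor DEC2, with 0.254, 0.483, 0.519 and 0.128 CPM in KO untreated libraries 1 to 4, against 0.819, 1.53, 2.14 and 4.64 CPM in WT DMSO libraries 1 to 4. All KO untreated livers were lower, at -2.73 ± 0.90 on the log2 scale (by edgeR, adjusted p = 0.156, DESeq2 adjusted p = 0.0302). Bhlhe41 was also the largest in KO CDDO-Me against WT CDDO-Me livers, at -1.71 ± 0.83 (edgeR adjusted p = 0.310). The largest in WT CDDO-Me against WT DMSO livers was Noct, the gene of nocturnin, known for its rhythm in liver, with 71.3 to 86.0 CPM in WT CDDO-Me livers and 114 to 196 CPM in WT DMSO livers. Noct stood at -0.91 ± 0.27 on the log2 scale (by edgeR, adjusted p = 0.147, 0.0494 without KO untreated 1, and DESeq2 adjusted p = 0.0462).

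Genes that the clock drives in liver were read as a further list. Of 8 rhythmic liver outputs, Insig2, which restrains cholesterol synthesis, fell in WT CDDO-Me livers, and no other of them was called by edgeR in any comparison (0.728% of all genes were in that of Insig2). Insig2 had 123, 92.9, 90.4 and 104 CPM in WT CDDO-Me libraries 1 to 4, against 263, 179.7, 153 and 193 CPM in WT DMSO libraries 1 to 4. Every WT CDDO-Me liver was lower, at -0.94 ± 0.21 on the log2 scale (by edgeR, adjusted p = 0.0493). The call was lost when any 1 library was left out other than KO CDDO-Me 1, KO CDDO-Me 3, KO untreated 4 or WT DMSO 3, at adjusted p of up to 0.197. WT CDDO-Me livers also carried more Kupffer cell marker RNA, with 4 of 4 markers called higher by edgeR and a sum of 302 to 423 CPM, against 125 to 167 CPM in WT DMSO livers. Its part in this and in the clock gene values was not tested. The largest log2 fold changes in the other comparisons were -0.54 for Lpin1 in KO CDDO-Me against KO untreated livers, 1.29 for Upp2 in KO CDDO-Me against WT CDDO-Me livers and 1.04 for Cyp7a1 in KO untreated against WT DMSO livers (edgeR adjusted p = 0.621, 0.0710 and 0.542). DESeq2 called Upp2 among these 3 (adjusted p = 0.0109). Lpin1 had a larger one, -1.95, in WT CDDO-Me against WT DMSO livers (edgeR adjusted p = 0.165, DESeq2 adjusted p = 0.0229).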

How the data were processed

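Liver RNA of 16 libraries was sequenced after removal of ribosomal RNA, with a kit that keeps strand, per the labels' protocols, and the authors deposited a table of read counts per gene and one of FPKM (fragment counts scaled by gene length and library total). Per the submitters' processing notes, the build was GRCm38.p5 and the tools included HTSeq 0.6.1p1, TopHat2 2.1.0, cutadapt 1.2.1, CASAVA 1.8.2 and DESeq2, with no order or role given. Which annotation was used, whether counting used strand, and any filter were not stated. The deposited FPKM equal count over length and library total (largest relative deviation 8.71e-07). Samples were grouped by their labels, and no column belonged to another sample. Of the gene IDs, 33629 matched GENCODE M21, 101 did not, and 1080 genes had no count.

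The main test was the quasi-likelihood test of edgeR 4.0.16 (R 4.3.3) on the counts, with TMM scaling, filterByExpr (16206 genes kept), all 4 groups in 1 fit (12 residual degrees of freedom) and Benjamini-Hochberg adjustment over those genes at 0.05. CPM carry no pseudocount, and log2 CPM a prior count of 2. DESeq2 1.42.0, limma 3.58.1 (voom, and log2(FPKM + 1) or log2(FPKM + 0.1)), other scalings, no filter, an intronic covariate and leaving out libraries were the alternatives. Scripts were tested on simulated data. Pairs of clock genes were tested by 100000 permutations within groups. A replicate block was fitted as a further alternative. In KO untreated against WT DMSO livers, same-numbered libraries correlated at 0.373 to 0.522 from their deviations from group means. There, 4 of 8 libraries were closest to their own number in the other group. Libraries 1 and 2 of both groups were also the intron-rich ones. Libraries closest to their own number were 5 of 8 in KO CDDO-Me against WT CDDO-Me livers. They were 3 of 8 in WT CDDO-Me against WT DMSO livers and 2 of 8 in KO CDDO-Me against KO untreated livers. The labels give only numbers and state no pairing, so whether these numbers pair livers was not tested.

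The 10 genes and all lists were chosen with earlier results of these data known. Named genes were the 10, every called gene of each other list, and the gene with the largest absolute log2 fold change of each list in each pairwise comparison. For Arntl and Dbp they also include the 5 genes most like each. A gene that this rule names is not reported here. Clock genes named by their correlation with Arntl or Dbp, and glucocorticoid-responsive genes named for their overlap, were added after their values were seen. Total counts of 12002317 to 99284626 a library leave Ciart and Npas2 with few reads. The edgeR p-values set group differences against the spread between these samples, and the permutation p-values set correlations against libraries reshuffled within groups.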

Additional observations from a re-analysis of the deposited data

Results flagged for a closer look

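Among the 44 sets of 4 libraries examined (10 clock genes and the Dbp to Arntl ratio, in 4 groups), 2 held a library far from the rest of its group by Dixon's criterion, which chance alone meets in about 1 in 20 groups. Per1 had 42.4 CPM in KO untreated 1, against 25.0 to 27.0 CPM in the other KO untreated libraries. Ciart had 2.68 CPM in KO CDDO-Me 4, against 0.862 to 0.892 CPM in the other KO CDDO-Me libraries. KO CDDO-Me 4 was also the library of its group with the highest Dbp, Nr1d1, Per2 and Per3 and the lowest Arntl and Npas2.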

How the results depend on the processing

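Of 1390 alternatives over 50 results on the clock genes, 60 turned a direction, none for a log2 fold change above 0.69 in size, and in 132 of 139 settings no clock gene was called. In KO CDDO-Me against WT CDDO-Me livers, 2 were called by DESeq2, 2 with only the groups compared, 1 without the pair of WT CDDO-Me 1 and WT DMSO 4, and 0 to 1 when 1 library was left out. In KO untreated against WT DMSO livers, 1 was called by DESeq2, 2 without that pair, and 0 to 2 when 1 library was left out. Pairs called numbered 17, against 8 without that pair and 9 without the 2 farthest libraries. The log2 fold changes that turned were, in KO CDDO-Me against KO untreated livers, Arntl (main value 0.01) at -0.059 with upper-quartile scaling, -0.12 by voom, -0.23 and -0.31 from FPKM with pseudocounts of 1 and 0.1, -0.0018 with only the groups compared and -0.042 with a replicate block. There, FPKM also gave Clock (0.09) -0.10 and -0.11 and Per1 (0.11) -0.084 and -0.092. The intronic covariate gave Clock -0.0054 and Npas2 (-0.30) 0.24, and Npas2 was 0.38 without the 4 intron-rich libraries. In KO untreated against WT DMSO livers, Dbp (-0.56) was 0.58 by voom and 0.18 and 0.51 from FPKM, and Nr1d1 (-0.18) was 0.14 and 0.16. Without the intron-rich libraries, Clock (0.20) was -0.036, Npas2 (0.31) -0.26, Per2 (0.69) -0.063 and Per3 (0.30) -0.41. Without the pair WT CDDO-Me 1 and WT DMSO 4, Arntl (0.03) was -0.031 and Per3 -0.064. In WT CDDO-Me against WT DMSO livers, Per3 (-0.21) was 0.19 by voom, 0.32 with the intronic covariate and 0.081 without the intron-rich libraries, where Arntl (-0.50) was 0.16, Clock (0.19) -0.050 and Dbp (0.38) -0.12. In the interaction, Clock (0.09) was -0.16 and Per2 (0.44) -0.35 without them. Pearson r of Arntl and Clock (-0.11) was 0.46 without them, and those of Clock with Per2 (-0.35) and Dbp (-0.22) were 0.0095 and 0.078 once that pair was left out. Leaving out 1 library gave, in KO CDDO-Me against KO untreated livers, -0.24 to 0.30 for Arntl, -0.26 to 0.74 for Ciart, -0.59 to 0.11 for Npas2 and -0.054 to 0.31 for Per1. It gave -0.13 to 0.51 for Per2 in KO CDDO-Me against WT CDDO-Me livers. In KO untreated against WT DMSO livers it gave -0.24 to 0.59 for Arntl, -0.95 to 0.68 for Dbp, -0.12 to 0.68 for Npas2, -0.44 to 0.34 for Nr1d1 and -0.12 to 0.57 for Per3. In WT CDDO-Me against WT DMSO livers it gave -0.80 to 0.055 for Arntl, -0.28 to 0.049 for Cry1, -0.020 to 1.62 for Dbp and -0.57 to 0.043 for Per3. In the interaction it gave -0.82 to 0.046 for Arntl and -0.0016 to 0.20 for Clock. The cause was not tested.

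Over all genes, edgeR called 21 in KO CDDO-Me against KO untreated livers (298 by DESeq2, 46 with a replicate block, 4 to 133 with 1 library left out) and 534 in KO CDDO-Me against WT CDDO-Me livers (1125, 811 and 265 to 820). It called 223 in KO untreated against WT DMSO livers (657, 250 and 104 to 271), 118 in WT CDDO-Me against WT DMSO livers (471, 226 and 54 to 219) and 21 in the interaction (176, 42 and 18 to 48). The replicate block called no clock gene. Outside KO untreated against WT DMSO livers, same-numbered libraries correlated at -0.472 to 0.388. In every comparison the labels give them only a shared number. FPKM values shifted the median gene by up to 0.18 (log2). Low counts limit Ciart and Npas2, and 4 livers a group limit the rest.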

Other observations

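Glucocorticoids, feeding and body temperature are known to shift the liver clock, and genes that follow each were read as short lists. Of 7 glucocorticoid-responsive genes, Mt2, a metallothionein, was called in KO untreated against WT DMSO livers (1.38% of all genes were), and none of the 7 by edgeR in the other comparisons. In that comparison 2 of the 7 had positive log2 fold changes and 3 (Mt2, Fkbp5 and Zbtb16) had groups that did not overlap, all lower, beside 5.91% of all genes. Mt2 had 5.54, 19.5, 80.6 and 70.8 CPM in KO untreated libraries 1 to 4, against 277, 449, 431 and 1087 CPM in WT DMSO libraries 1 to 4. Each KO untreated liver lay below every WT DMSO liver, at -3.67 ± 0.64 on the log2 scale (by edgeR, adjusted p = 0.00943). With only those 2 groups in the fit the call was lost, at an edgeR adjusted p of 0.158. The log2 fold change of Mt2 was 3.18 ± 0.63 in KO CDDO-Me against KO untreated livers, with groups that did not overlap and an edgeR adjusted p of 0.0682 (0.0217 without WT DMSO 4, and 5.38e-06 by DESeq2). It answers to metals as well as to glucocorticoids. Fkbp5, a co-chaperone of the glucocorticoid receptor, was lower in every KO liver than in every WT liver of the same comparison. It had 21.7, 54.7, 56.9 and 86.0 CPM in KO CDDO-Me libraries 1 to 4, against 87.1, 123, 103 and 187 CPM in WT CDDO-Me libraries 1 to 4. It had 10.8, 28.9, 50.1 and 58.1 CPM in KO untreated libraries 1 to 4, against 117, 121, 119 and 97.1 CPM in WT DMSO libraries 1 to 4. The log2 fold changes were -1.19 ± 0.43 and -1.62 ± 0.44 in the same order (edgeR adjusted p = 0.156 and 0.0829), so neither was called. The list was not of 1 direction in KO CDDO-Me against WT CDDO-Me livers. There Fkbp5 and Mt2 were lower without overlap and Tsc22d3 higher without overlap, where 19.1% of all genes had groups that did not overlap. Tsc22d3 had 70.1 to 128 CPM in KO CDDO-Me livers, against 37.7 to 66.8 CPM in WT CDDO-Me livers (log2 fold change 0.89 ± 0.37, edgeR adjusted p = 0.225). Fkbp5 and Zbtb16 in KO untreated against WT DMSO livers, and Mt2 and Tsc22d3 in KO CDDO-Me against WT CDDO-Me livers, were named after their values were seen. A Kupffer cell marker was called in both comparisons, as given beside Per1 and Nr1d1, and the part of these markers in these values and in Srebf1 was not tested. In WT CDDO-Me against WT DMSO livers the largest log2 fold change of the list was -0.73 for Tsc22d3, the gene of GILZ (edgeR adjusted p = 0.353, and 0.0263 at -1.05 without WT DMSO 4).

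Of 9 genes that follow fasting and feeding, Srebf1, the regulator of fat synthesis, was higher in KO CDDO-Me livers than in WT CDDO-Me livers. It had 409, 424, 274 and 346 CPM in KO CDDO-Me libraries 1 to 4, against 94.2, 84.5, 104 and 90.2 CPM in WT CDDO-Me libraries 1 to 4. The groups did not overlap, the difference was 1.96 ± 0.33 on the log2 scale (by edgeR, adjusted p = 0.00272), and the call held in all 28 alternatives. In that comparison 3.30% of all genes were called. Pnpla3, a lipid droplet protein whose RNA rises on feeding, had the largest log2 fold changes in the list, with 2.11 to 6.56 CPM in KO CDDO-Me, 3.68 to 37.8 CPM in KO untreated, 0.474 to 1.21 CPM in WT CDDO-Me and 1.67 to 30.9 CPM in WT DMSO livers. Its log2 fold changes were -1.83 ± 0.79 in KO CDDO-Me against KO untreated, 2.40 ± 0.89 in KO CDDO-Me against WT CDDO-Me and -3.71 ± 0.91 in WT CDDO-Me against WT DMSO livers (edgeR adjusted p = 0.291, 0.168 and 0.0793). Without WT DMSO 3 or WT DMSO 4, the last of these was called, at edgeR adjusted p of 0.0326 and 0.0288, and DESeq2 called it with all libraries (adjusted p = 0.00177) but not the other 2 Pnpla3 values. The largest in KO untreated against WT DMSO livers was -1.10 for Igfbp1, a secreted binding protein that rises on fasting (edgeR adjusted p = 0.225). None of 5 genes that follow body temperature was called by edgeR, and at an unadjusted p under 0.05 there were 1 in KO untreated against WT DMSO livers and 1 in WT CDDO-Me against WT DMSO livers, beside 14.1% and 15.3% of all genes. Their largest log2 fold changes were 0.23 for Rbm3 in KO CDDO-Me against KO untreated, -0.84 for Hspa1b in KO CDDO-Me against WT CDDO-Me, 0.67 for Hsph1 in KO untreated against WT DMSO and 1.00 for Hspa1a in WT CDDO-Me against WT DMSO livers. DESeq2 called none of these 4.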
